A study of Mus musculus with 16 samples.

Results

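The transcription factor genes Tcf7, Lef1, Klf2, Satb1, Bach2, Foxo1, Id3 and Myb were followed in CD8+ T cells from transplanted mouse kidneys and from spleens. The set was chosen by name, as factors of naive and stem-like T cells, with earlier results of these data known. It counts 8 of the 32285 genes listed in the CD8+ T cell data. All 8 were among the 16243 genes listed in each of the 9 CD8+ matrices. Viable CD45+ cells (CD45 marks all leukocytes) had been sorted and profiled by droplet single-cell RNA-seq, in which each captured mRNA molecule is counted once through its unique molecular identifier (UMI), and the cells placed in the CD8+ clusters were deposited as UMI counts. In the acceptance model a DBA/2J kidney is transplanted into a C57BL/6 (B6) recipient and survives without drugs. Accepted kidneys were sampled 1 week (3 libraries), 3 weeks (5 libraries) and 24 weeks (3 libraries) after transplantation, and the recipients' spleens at the same times with the same numbers of libraries. Rejecting kidneys (2 libraries) and the spleens of their recipients (3 libraries) were taken at 1 week from the reverse transplant, B6 kidney into DBA/2J recipient, and spleens of naive mice without a transplant (5 libraries) served as controls. The labels give wild-type C57BL/6J for every sample, the rejecting ones too, whereas the study's text gives DBA/2J recipients there, so that rejection and recipient strain cannot be told apart. The mice were male, and their ages were not given in the sources used here.

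A naive CD8+ T cell is held at rest, and sent round the lymphoid organs, by a small group of transcription factors. TCF-1 (from Tcf7) and LEF-1 (from Lef1) are closely related proteins that bind the same DNA sequence and keep the naive program on; FOXO1 turns on genes for homing and survival; KLF2 turns on S1pr1, the receptor through which T cells leave tissue; SATB1 organizes chromatin; and BACH2 holds back effector genes. ID3 blocks E proteins in memory precursors, and MYB is needed by stem-like cells. On activation by antigen most of these genes are switched off in effector cells, whereas a minority of stem-like cells, in chronic stimulation also the precursors of exhausted cells, keep TCF-1.

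The 8 genes lie on 6 chromosomes and differ in the length of their introns, which matters below. In GRCm38, with GENCODE M21 gene bodies, Tcf7 lies at chr11:52252371-52283014 on the minus strand, Lef1 at chr3:131110471-131224356 on the plus strand, Klf2 at chr8:72319033-72321656 on the plus strand, and Satb1 at chr17:51736187-51833290 on the minus strand. Bach2 lies at chr4:32238804-32586108 and Id3 at chr4:136143497-136145755, both on the plus strand, Foxo1 at chr3:52268336-52353221 on the plus strand, and Myb at chr10:21124935-21160984 on the minus strand. Bach2 carries 337 kb of intron and Lef1 105 kb. Satb1 carries 78.1 kb, Foxo1 76.2 kb, Tcf7 28.0 kb and Myb 27.1 kb, whereas Klf2 and Id3 carry under 1 kb each (0.777 and 0.468 kb).

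Lef1 and Satb1 moved most closely with Tcf7 across the libraries, and also with each other (values under the correlations at the end), so the 250 bases before their most upstream RefSeq start sites are shown, from GRCm38.p6, 5′ to 3′ on the gene's strand. The window of Lef1 is chr3:131110047-131110296 (plus strand) and that of Satb1 is chr17:51833291-51833540 (minus strand). Capitals mark the letters CCACCC, the core of the sequence bound by KLF proteins.
Lef1: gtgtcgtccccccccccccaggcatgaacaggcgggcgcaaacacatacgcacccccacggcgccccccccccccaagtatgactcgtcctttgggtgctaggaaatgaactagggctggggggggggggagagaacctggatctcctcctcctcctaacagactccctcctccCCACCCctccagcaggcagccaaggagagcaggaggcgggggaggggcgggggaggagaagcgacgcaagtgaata
Satb1: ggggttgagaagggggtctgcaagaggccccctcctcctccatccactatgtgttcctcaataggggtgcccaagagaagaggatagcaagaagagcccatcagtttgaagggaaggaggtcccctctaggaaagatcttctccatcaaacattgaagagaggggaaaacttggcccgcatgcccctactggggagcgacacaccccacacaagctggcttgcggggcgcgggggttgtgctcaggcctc
All 8 members had such a window. CCACCC was found on either strand in 4 of them (Lef1, Klf2, Id3 and Myb, 1 match each) and in 28.1% of 32851 windows of the same length over all RefSeq starts. CTTTGAT (TCF/LEF), GTAAACA (FOXO) and CAACTG (MYB) were found in none of the 8, and in 3.21%, 3.17% and 11.1% of all windows. These matches describe letters in a window and are no binding sites.

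Levels were read as counts per 1e+06 UMIs (CPM) summed per library, a library being 1 barcode tag, over the 56585 of 72639 cells with a UMI of Cd8a or Cd8b1. That share of cells ran from 44.2% in spleens of accepting recipients at 1 week to 100.0% in rejecting spleens. A library held 153266 to 22782080 UMIs and its cells a median of 1764 to 6069. Beside Cd8a and Cd8b1, which chose the cells, the 4 other T cell markers looked for (Cd3e, Cd3d, Cd3g and Trac) had UMIs in every group, and at most 4.07% of cells in a library had a Cd4 UMI. A sum over a library cannot tell fewer cells that express a gene from less RNA of it per cell. Genes of dividing cells summed to 1236 to 2423 CPM in accepted kidneys at 1 week and 1008 to 3426 in rejecting kidneys, against at most 802 in all other libraries. B cell markers summed to 415 to 884 CPM in accepting spleens at 1 week and at most 366 elsewhere. Myeloid markers summed to 167 to 248 CPM in accepted kidneys at 1 week, 192 to 304 CPM at 3 weeks and 270.3 to 282 CPM in rejecting kidneys, against 48.4 to 122 CPM in naive and accepting spleens at 1 and 3 weeks. Of 71946 cell barcodes, 690 occurred in more than 1 library, and no pair of libraries shared more than 1.79% of the smaller one.

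Measures of the 24-week libraries did not all go with their labels. RNA of 15 kidney tubule genes summed to 0.305 to 0.474 CPM in the 3 libraries labelled 24-week kidney, where 13 of the 15 genes were at 0, but to 5.36 to 7.03 CPM in those labelled 24-week spleen. In the other libraries the sum was 1.30 to 14.4 CPM in accepted kidneys and at most 0.890 in accepting and naive spleens at 1 and 3 weeks or without a transplant, whose matrices listed 5 to 7 of the 15 genes. Rejecting spleens, whose matrix listed all 15, ranged from 0 to 3.02 CPM and rejecting kidneys from 1.92 to 4.10 CPM, so that the ranges of kidneys and spleens overlapped there. The share of matrix cells with a CD8 UMI was 47.4% under the 24-week kidney label and 94.6% under the spleen label, beside 44.2% and 46.8% in accepting spleens and 84.8% and 96.8% in accepted kidneys at 1 and 3 weeks. The lists of genes went with the labels only in part. The matrix under the 24-week kidney label listed the same 19497 genes as both other accepted-kidney matrices. That under the 24-week spleen label listed 18363 genes, but among them all 15 tubule genes, against 5 to 7 in the other accepting and the naive spleens. These libraries are therefore called by their labels only, and no result at 1 or 3 weeks uses them.

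Differences were fitted with edgeR's quasi-likelihood test over all genes, with Benjamini-Hochberg adjustment; a gene was called at an adjusted p under 0.05. Each log2 fold change is given with its SE. Plain library totals leave the median of all genes off 0, and that median is given with each comparison.

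Tcf7 was highest in the spleens of accepting recipients at 3 weeks and lowest in their kidneys at that time. Its level was 427, 440.4, 428, 429 and 438 CPM in the 5 spleen libraries at 3 weeks and 413, 416, 421, 419 and 415 CPM in naive spleens. In accepting spleens at 1 week it was 328, 335 and 335 CPM, and in rejecting spleens 254, 359 and 417 CPM. The rejecting spleens thus spanned the accepting spleens of 1 week and overlapped the naive ones, while every 3-week spleen exceeded every naive and rejecting one. Accepted kidneys held 107, 77.1 and 84.8 CPM at 1 week and 15.2, 10.7, 12, 11.8 and 9.29 CPM at 3 weeks, and rejecting kidneys 32.3 and 39.5 CPM. Libraries labelled 24-week kidney held 322, 359 and 309.6 CPM, and those labelled 24-week spleen 50.5, 61.2 and 61.2 CPM. The 4 lowest groups (3-week kidney, rejecting kidney, 24-week spleen label, 1-week kidney) did not overlap one another.

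Lef1, the partner of Tcf7, had its highest level in rejecting spleens, at 906, 574 and 971 CPM. This rank is not adjusted for intron length. After that adjustment Lef1 differed by log2 -0.32 between rejecting and accepting spleens at 1 week (adjusted p = 0.134, edgeR). Naive spleens ranged from 375 to 493 CPM (median 439), accepting spleens from 282 to 341 CPM at 1 week and from 406 to 465 CPM at 3 weeks; only the naive and 3-week ranges overlapped. Accepted kidneys held 50.2, 32.2 and 47.8 CPM at 1 week and 13.5, 6.66, 8.28, 7.22 and 4.60 CPM at 3 weeks. Rejecting kidneys (22.6 and 34.9 CPM) overlapped the accepted kidneys of 1 week. The 24-week kidney label held 487, 485 and 535 CPM and the 24-week spleen label 11.95, 14.6 and 19.0 CPM.

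Klf2 stood apart in that it was highest in accepting spleens at 1 week (1093, 974 and 838 CPM), above all naive spleens (575 to 772 CPM). It held 186, 189 and 152 CPM in accepted kidneys at 1 week and 78.4, 70.2, 59.4, 64.3 and 58.6 CPM at 3 weeks. Rejecting kidneys had the lowest level of all groups, 21.03 and 8.82 CPM, and rejecting spleens (286, 281 and 361 CPM) lay below all other spleens but those labelled 24 weeks (145 to 166 CPM). The 24-week kidney label (849 to 911 CPM) lay within the range of accepting spleens at 1 week.

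The remaining 5 members fell into 3 patterns. Satb1 and Bach2 were highest in rejecting spleens, at 542 to 684 and 437 to 637 CPM, and lowest in accepted kidneys at 3 weeks, at 21.4 to 36.3 and 5.29 to 8.28 CPM. Ranks of rejecting libraries, here and for Foxo1 below, are not adjusted for intron length. Id3 and Myb were also lowest in accepted kidneys at 3 weeks, at 2.67 to 5.21 and 0.638 to 2.11 CPM, but Id3 was highest in naive spleens (41.8 to 78.9 CPM) and Myb in accepting spleens at 3 weeks (48.2 to 74.7 CPM). The top groups of Satb1 and Myb overlapped naive spleens (508 to 559 and 26.5 to 56.0 CPM). That of Id3 overlapped accepting spleens at 1 week (52.2 to 62.3 CPM), among others. The 3-week kidney range overlapped that of 1-week kidneys for Satb1 and Bach2 and that of the 24-week spleen label for Satb1 and Myb, and for Id3 it overlapped no other group. Foxo1 varied least: its group means ran from 68.8 ± 8.0 CPM (SD, n = 3) in accepted kidneys at 1 week to 219.8 ± 106 (SD, n = 2) in rejecting kidneys, and each group overlapped the next in order of mean except accepting spleens and accepted kidneys at 1 week.

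**Figure D1:**
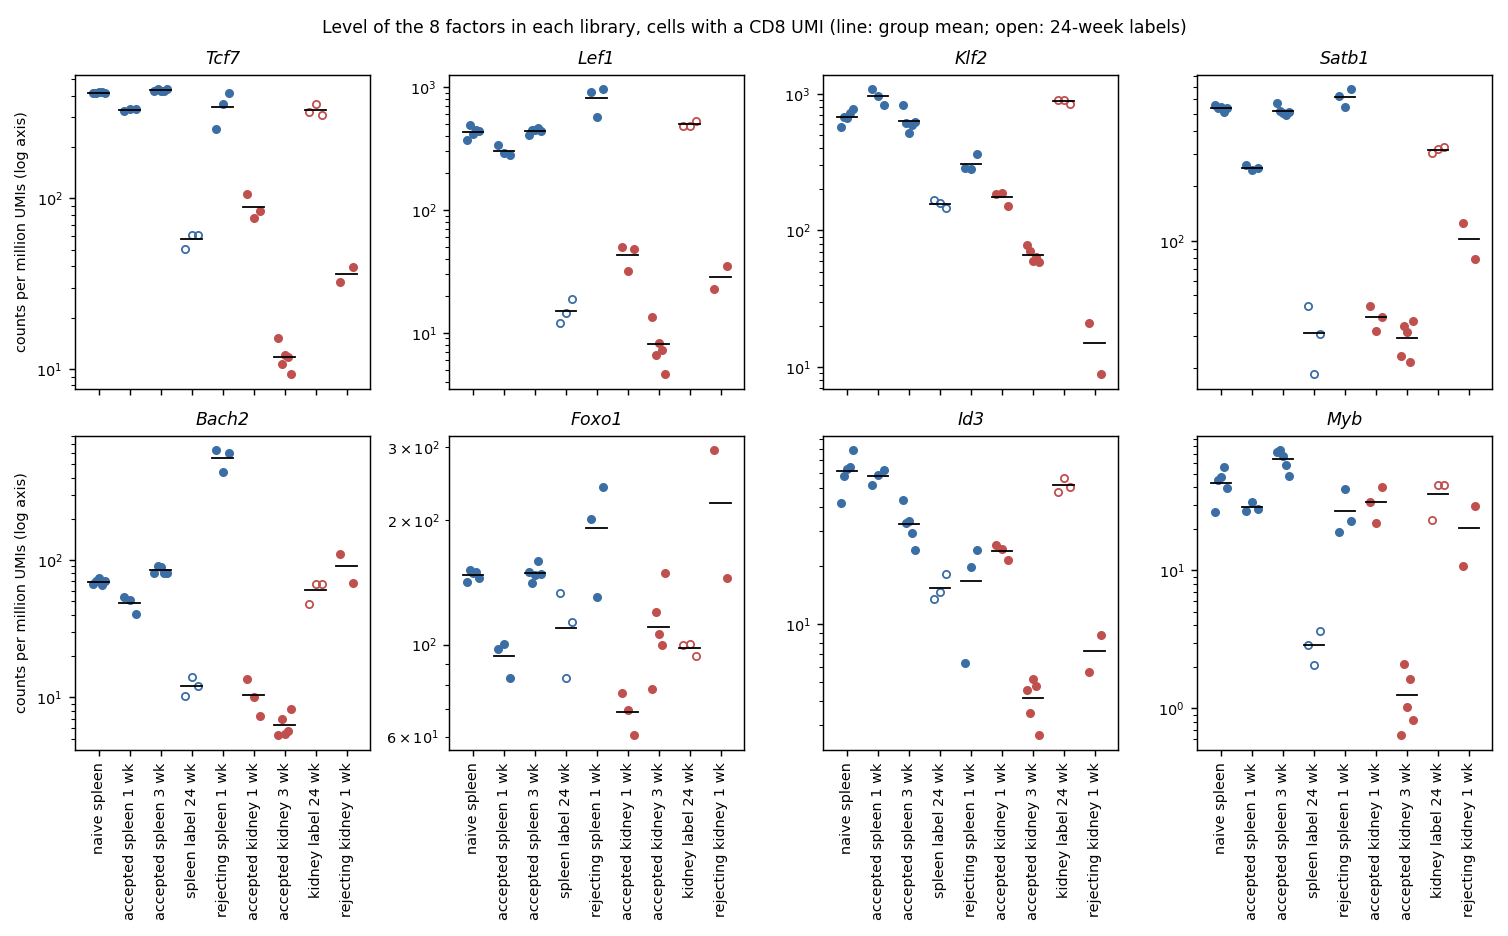
Level of each factor (CPM, log axis) in each of the 32 libraries, 1 point per library, with the group mean as a line; spleens blue, kidneys red, 24-week labels open. Tcf7 lies between 9.29 and 15.2 CPM in the 3-week kidneys and between 427 and 440.4 CPM in the 3-week spleens.

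In the accepted graft CD8+ T cells held less of these factors than in the recipient's spleen, already at 1 week. At 1 week 7 of the 8 members were lower in kidney and Myb was not called (log2 fold change 0.14 ± 0.19, adjusted p = 0.560, edgeR). Of all 11133 genes tested, 19.4% were called lower and 30.0% higher, around a median of 0.08; 60.7% of the called genes were higher, or 49.8% with TMM scaling. Lef1 was 7.03-fold lower (log2 fold change -2.81 ± 0.16), Satb1 6.61-fold (-2.73 ± 0.12), Klf2 5.52-fold (-2.47 ± 0.13), Bach2 4.75-fold (-2.25 ± 0.20) and Tcf7 3.72-fold (-1.89 ± 0.12), with adjusted p from 2.31e-08 to 3.97e-06. Id3 was 2.44-fold lower and Foxo1 1.36-fold lower (adjusted p = 0.00824). Foxo1 was not called once cells with a marker of other cell types were left out (log2 fold change -0.30, adjusted p = 0.0782). B cell markers summed to 415 to 884 CPM in these spleens and 8.94 to 9.44 CPM in the kidneys, and B cells carry Klf2, Satb1, Bach2, Foxo1 and Id3.

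At 3 weeks all 8 members were lower in kidney than in spleen, beside 16.8% of 10619 genes called lower and 48.6% higher (median 0.28; 74.4% of called genes higher, or 52.0% with TMM). Lef1 was 54.5-fold lower (log2 fold change -5.77 ± 0.16, adjusted p = 9.65e-17), Myb 52.2-fold (-5.71 ± 0.19), and Tcf7 36.5-fold (-5.19 ± 0.10, adjusted p = 9.83e-19). Satb1 was 17.7-fold lower, Bach2 13.3-fold, Klf2 9.63-fold and Id3 7.99-fold. Foxo1 was 1.35-fold lower (adjusted p = 0.00384), and its kidney and spleen libraries overlapped. The 3-week kidney levels of Myb and, against B cells, of Lef1 lay near background, and those of Id3, Bach2, Klf2 and Satb1 lay below myeloid cells of at least 1 tissue (shares below). That of Tcf7, 9.29 to 15.2 CPM, lay near the 1.80 to 8.50 CPM of naive-spleen myeloid cells. These reference cells came from naive spleens and rejecting kidneys, not from accepted kidneys. Myeloid cells express Klf2, and whether they express Id3, Bach2 or Satb1 was not tested, so a level below theirs measures no background. No background was subtracted, so the sizes of the folds of all these genes are uncertain. Myeloid markers summed to 192 to 304 CPM in these kidneys and 56.3 to 76.5 CPM in the spleens. B cell markers went the other way, with 12.4 to 29.0 CPM in the kidneys and 110.0 to 317 CPM in the spleens. Without cells holding a marker of other cells all 8 members stayed called, with Tcf7 at -5.24 and Lef1 at -5.79.

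Other genes of the naive state followed. Of 10 genes of naive and recirculating cells, 9 were lower in kidney at 1 week and 10 at 3 weeks, with Igfbp4 (-5.14 ± 0.37) and Nsg2 (-3.36 ± 0.13) largest at 1 week and Dapl1 (-7.67 ± 0.16) and Igfbp4 (-7.09 ± 0.14) at 3 weeks. Of 8 factors of effector cells, 7 were higher at 1 week and all 8 at 3 weeks, led by Prdm1, which encodes the repressor BLIMP-1 (3.15 ± 0.16 and 3.72 ± 0.18), and Bhlhe40 (3.00 ± 0.11 and 4.19 ± 0.13). Relatives of the members did not share 1 direction: of 14 paralogs, 3 were higher and 3 lower at 1 week (11 tested), and 3 and 2 at 3 weeks (8 tested). Klf3 was lower at both times (-2.81 ± 0.16 and -4.91 ± 0.11), and Id2, an inhibitor of E proteins like Id3 that is known from effector cells, was higher at 3 weeks (2.41 ± 0.08).

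Within the accepted graft the factors fell further between 1 and 3 weeks. Of the members 7 were lower at 3 weeks and Foxo1 was higher, beside 21.2% of 11638 genes called lower and 53.6% higher around a median of 0.41 (71.6% of called genes higher, or 49.7% with TMM). Myb was 25.7-fold lower (log2 fold change -4.69 ± 0.25, adjusted p = 1.44e-09), down to a level near background, Tcf7 7.56-fold (-2.92 ± 0.14, adjusted p = 4.06e-10), Id3 5.69-fold (-2.51 ± 0.16; at 3 weeks below myeloid cells), Lef1 5.37-fold (-2.43 ± 0.22) and Klf2 2.65-fold (-1.40 ± 0.10). None of these 5 genes had overlapping groups, and neither had Foxo1 (60.4 to 76.3 CPM at 1 week, 78.1 to 149 CPM at 3 weeks). How many of all genes had none was not counted, and 8704 of the 11638 tested were called. The limits on 3-week kidney levels given above hold for all comparisons with that group. Myb is known also from dividing cells, whose genes summed to 72.2 to 88.0 CPM at 3 weeks against 1236 to 2423 CPM at 1 week. Among non-dividing cells the log2 fold change of Myb was -4.21. In the recipients' spleens genes of dividing cells also fell, from 257 to 655 CPM at 1 week to 29.6 to 41.0 CPM at 3 weeks, while Myb rose there (below). Whether division bears on the level of Myb was not tested.

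Bach2 and Satb1 changed less, by 1.61-fold (-0.68 ± 0.20, adjusted p = 0.00598) and 1.30-fold (-0.38 ± 0.16, adjusted p = 0.0413), and their groups overlapped. Satb1 was not called without 1-week kidney library 1 or 3 or 3-week kidney library 1 or 4 (adjusted p 0.0703 to 0.193), and Bach2 not without 1-week kidney library 1 (adjusted p = 0.0612). Relative to the median of all genes they lay at -1.10 and -0.79. The rise of Foxo1 (0.69 ± 0.16, adjusted p = 0.00101) equalled the median of genes of like intron length (0.69); it was not called with TMM scaling (0.30, adjusted p = 0.0973) or after adjustment for intron length (0.06, adjusted p = 0.740).

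The spleens of accepting recipients did not follow this course. From 1 to 3 weeks 6 members rose and 2 fell in spleen, beside 31.9% of 9468 genes called higher and 17.4% lower (median 0.17; 64.7% of called genes higher, or 47.4% with TMM). Myb rose 2.26-fold (log2 fold change 1.18 ± 0.13), Satb1 2.06-fold (1.04 ± 0.08), Bach2 1.75-fold, Foxo1 1.59-fold, Lef1 1.45-fold and Tcf7 1.30-fold (0.38 ± 0.07, adjusted p = 0.000204). Klf2 fell 1.52-fold and Id3 1.73-fold. B cell markers, whose cells carry both genes, summed to 415 to 884 CPM at 1 week and 110.0 to 317 CPM at 3 weeks; without cells that held a marker of other cells Klf2 differed by -0.59 and Id3 by -0.77, and both stayed called. Lef1 was no longer called after adjustment for intron length (0.15, adjusted p = 0.181).

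Tested directly, the change from 1 to 3 weeks was lower in kidney than in spleen for 7 of the 8 members, beside 9.48% of 11895 genes called lower and 24.3% called higher (median 0.23; 71.9% of called genes higher, or 49.6% with TMM). Myb differed by log2 -5.86 ± 0.31 (adjusted p = 2.69e-12), a size that rests on its 3-week kidney level near background. Next came Tcf7 (-3.30 ± 0.15, adjusted p = 1.04e-12) and Lef1 (-2.96 ± 0.25). Id3 (-1.71 ± 0.22), Bach2 (-1.48 ± 0.23), Satb1 (-1.42 ± 0.18) and Klf2 (-0.80 ± 0.17, adjusted p = 0.00118) followed. The difference of Foxo1 was 0.02 ± 0.19 (adjusted p = 0.955). In the kidney over the same time, where 21.2% of all genes were called lower and 53.6% higher, 5 of 9 tested naive genes fell and 3 rose, among the former Dapl1 (-5.06 ± 0.27) and Ccr7, the lymph node homing receptor (-3.29 ± 0.23), and 6 of 8 effector factors rose, led by Id2 (1.60 ± 0.11), while Batf (-1.21 ± 0.11) and Irf4 (-0.96 ± 0.16) fell. The median of the 8 effector factors (0.44) lay near that of all genes (0.41).

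Against naive spleens, the spleens of accepting recipients at 1 week held less of 6 members and more of Klf2, beside 36.5% of 10160 genes called lower and 21.1% higher (median -0.17; 36.6% of called genes higher, or 51.9% with TMM). Satb1 was 2.13-fold lower (log2 fold change -1.09 ± 0.07, adjusted p = 8.47e-10), Foxo1 1.57-fold, Myb 1.51-fold, Bach2 1.45-fold, Lef1 1.42-fold and Tcf7 1.25-fold (-0.33 ± 0.06, adjusted p = 0.000215). Klf2 was 1.42-fold higher (0.50 ± 0.09), and Id3 was not called (-0.08 ± 0.13, adjusted p = 0.631). After adjustment for intron length 3 members remained called, Satb1 (-0.74), Foxo1 (-0.30) and Klf2 (0.44). B cell markers summed to 29.96 to 59.5 CPM in naive spleens against 415 to 884 CPM in these; without cells that held a marker of other cells, Klf2 differed by 0.49 and Satb1 by -0.97. Of the naive genes 9 of 10 were lower as well, by up to -1.12 ± 0.07 (Actn1), and 7 of 8 effector factors were higher, led by Irf4 (3.03 ± 0.34).

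**Figure D2:**
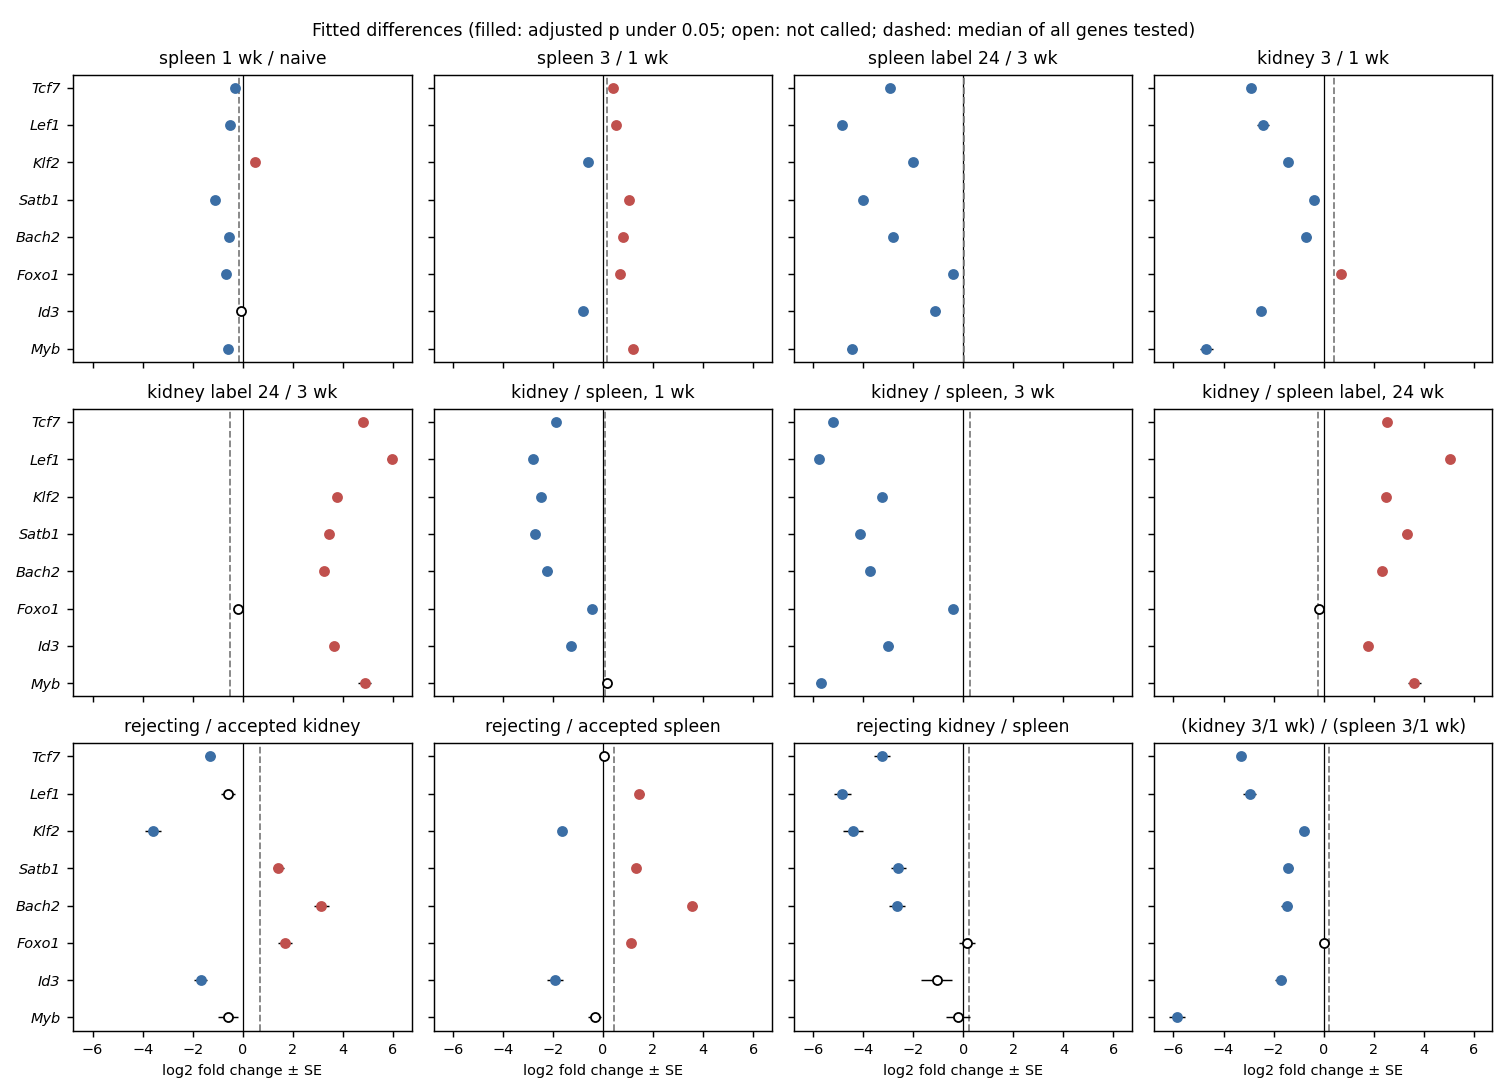
Log2 fold change ± SE of each factor (x axis) in 12 comparisons between groups of libraries; filled points have an adjusted p under 0.05 and the dashed line is the median of all genes tested. All points lie left of 0 in the 3-week kidney over spleen panel, and Foxo1 lies apart from the other members in the kidney over time.

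Libraries labelled 24 weeks reversed the order of kidney and spleen. Under the kidney label 7 members were higher at 24 than at 3 weeks, beside 14.2% of 11534 genes called higher and 56.9% lower (median -0.51; 19.9% of called genes higher, or 48.0% with TMM). Lef1 was 62.0-fold higher (log2 fold change 5.95 ± 0.18), Myb 29.3-fold and Tcf7 27.9-fold (4.80 ± 0.11). Klf2 was 13.4-fold higher, Id3 12.5-fold, Satb1 10.8-fold and Bach2 9.60-fold. All these folds are of uncertain size, since they are taken over the 3-week kidney levels, with the limits given above. Foxo1 was not called (-0.17 ± 0.15, adjusted p = 0.314; after adjustment for intron length 0.49, adjusted p = 0.0143). Under the spleen label all 8 were lower at 24 than at 3 weeks, beside 27.4% of 9763 genes called lower and 31.1% higher (median 0.02). Lef1 was 29.2-fold lower there (-4.87 ± 0.13), Myb 21.9-fold, Satb1 16.3-fold and Tcf7 7.53-fold. Bach2 differed by log2 -2.81 ± 0.13, and Klf2 was 4.05-fold lower, Id3 2.17-fold and Foxo1 1.35-fold (-0.43 ± 0.11, adjusted p = 0.00182). Under the 24-week spleen label Myb (0.163% of thinned cells), Satb1 (2.53%), Bach2 (0.987%), Id3 (1.27%) and Klf2 (10.2%) lay below naive-spleen myeloid cells (0.909%, 4.55%, 2.16%, 1.59% and 42.4%). Lef1, at 1.09%, lay near the 0.789% of naive-spleen B cells. None of these reference cells came from 24-week mice, and a level below myeloid cells measures no background, as above. No background was subtracted, so the sizes of the folds of these genes are uncertain as well.

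Between the 24-week labels, 7 members were higher under the kidney label, beside 14.7% of 9840 genes called higher and 39.1% lower (median -0.23; 27.3% of called genes higher, or 48.0% with TMM). Lef1 was 33.2-fold higher (5.05 ± 0.14, adjusted p = 2.27e-14), Myb 12.3-fold, Satb1 10.0-fold, Tcf7 5.75-fold, Klf2 5.66-fold, Bach2 5.05-fold and Id3 3.38-fold, and Foxo1 was not called (-0.17 ± 0.13, adjusted p = 0.288). The limits on the spleen label levels given above hold here too, so the folds of the called members but Tcf7 are of uncertain size. Foxo1 was called lower under the kidney label without 24-week spleen library 2 (-0.33, adjusted p = 0.0172), and lower at 24 than at 3 weeks without 3-week kidney library 1 (-0.28, adjusted p = 0.0314). Of the naive genes 9 of 10 were higher under the kidney label and all 8 effector factors were lower, by up to -5.13 ± 0.21 (Bhlhe40). B cell markers summed to 82.7 to 222 CPM under the kidney label and 15.4 to 45.4 CPM under the spleen label, and myeloid markers to 63.5 to 67.5 and 151 to 201 CPM. Without cells that held a marker of other cells the same 7 members were called higher under the kidney label, with Lef1 at 5.05, Tcf7 at 2.63 and Id3 at 1.61. The tubule genes given above moved with these labels in the opposite direction, and what the 24-week libraries are was not tested beyond those values; the study's other assays at that time are not used here.

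Rejecting kidneys differed from accepted kidneys at 1 week in both directions: 3 members were higher and 3 lower, beside 47.7% of 12222 genes called higher and 10.4% lower, around a median of 0.68. Bach2 was 8.78-fold higher (log2 fold change 3.13 ± 0.30, adjusted p = 5.62e-05), Foxo1 3.19-fold (1.67 ± 0.27, adjusted p = 0.000993) and Satb1 2.67-fold (1.42 ± 0.23, adjusted p = 0.000857). Without rejecting kidney library 2, which held 295 CPM of Foxo1 against 145 CPM in library 3, Foxo1 differed by 1.07 and Klf2, at 8.82 CPM in library 3, was 19.9-fold lower (-4.31). Bach2 stood at 112 and 68.6 CPM in rejecting kidneys against 13.6, 10.0 and 7.37 CPM in accepted ones. Klf2 was 12.1-fold lower (-3.60 ± 0.33, adjusted p = 4.80e-05), Id3, which lay at the level of myeloid cells there, 3.20-fold (-1.68 ± 0.26) and Tcf7 2.48-fold (-1.31 ± 0.21, adjusted p = 0.000881). Lef1 (-0.58 ± 0.27, adjusted p = 0.0975) and Myb (-0.60 ± 0.40, adjusted p = 0.223) were not called, and their groups overlapped. Both were called lower without rejecting kidney library 3 (Lef1 -0.94, adjusted p = 0.0193; Myb -1.55, adjusted p = 0.00472; the remaining library is assumed to vary like the accepted ones), and Lef1 also without accepted kidney library 2 (-0.76, adjusted p = 0.0460). With TMM scaling, which took the share of higher calls among called genes from 82.1% to 51.4%, both were called lower, at -1.24 and -1.27.

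The fold changes of all genes rose with intron length in this comparison. All tested genes were put into 10 groups by intron length, and the median log2 fold change was -0.26 in the shortest group, with Klf2 and Id3, and 2.19 in the longest, with Lef1 and Bach2. It was 0.86 in the group of Tcf7 and Myb and 1.44 in that of Satb1 and Foxo1. After adjustment for intron length Bach2 stayed higher (1.27, adjusted p = 0.00661), Foxo1 (0.37, adjusted p = 0.280) and Satb1 (0.13, adjusted p = 0.621) were not called, and Lef1 (-2.42), Tcf7 (-2.06), Myb (-1.36), Klf2 (-3.34) and Id3 (-1.42) were all called lower. The adjustment takes a single median per group, and the longest group holds Lef1 (105 kb of intron) and Bach2 (337 kb) alike. It therefore cannot show whether Bach2 exceeds genes with introns as long as its own. The rejecting matrices listed 32285 genes and the accepted-kidney matrices 19497. Whether intronic reads were counted in either is not given in the sources used here, and its part in these values was not tested. The share of dividing cells was 28.3% and 75.8% in the 2 rejecting kidney libraries; among non-dividing cells Tcf7 was not called (-0.61, adjusted p = 0.159), whereas Klf2 (-3.25), Id3 (-1.73), Bach2 (3.40), Foxo1 (1.73) and Satb1 (1.43) were, and Myb was called lower as well (-1.74, adjusted p = 0.00491).

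Rejecting spleens, set against accepting spleens at 1 week, showed 4 members higher and 2 lower, beside 39.8% of 9586 genes called higher and 11.5% lower (median 0.45; 77.6% of called genes higher, or 52.1% with TMM). Bach2 was 11.9-fold higher (log2 fold change 3.57 ± 0.18, adjusted p = 6.56e-09), at 637, 437 and 606 CPM against 53.7, 51.2 and 40.4 CPM, with no overlap. Lef1 (1.45 ± 0.18), Satb1 (1.31 ± 0.14) and Foxo1 (1.11 ± 0.18) were also higher, Id3 (-1.93 ± 0.32; -1.31 without rejecting spleen library 1 and -2.75 without library 3) and Klf2 (-1.63 ± 0.16) lower, and Tcf7 (0.03 ± 0.17, adjusted p = 0.885) and Myb (-0.33 ± 0.25, adjusted p = 0.296) not called. The medians by intron length ran from -0.44 in the shortest to 1.86 in the longest group. After adjustment for intron length only Bach2 of the 4 stayed higher (1.80), with the same limit of a single median for the longest group as in the kidney. Satb1 was at 0.20, Foxo1 at -0.001 and Lef1 at -0.32 (adjusted p = 0.134), and Tcf7 (-0.59, adjusted p = 0.0100) and Myb (-0.95) were called lower. With TMM scaling Tcf7 (-0.43) and Myb (-0.78) were called lower too. B cell markers summed to 91.3 to 366 CPM in rejecting and 415 to 884 CPM in accepting spleens. B cells carry Klf2 and Id3, which were lower in rejecting spleens, and Satb1, Bach2 and Foxo1, which were higher before adjustment for intron length. What part B cell RNA had in these values was not tested.

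**Figure D3:**
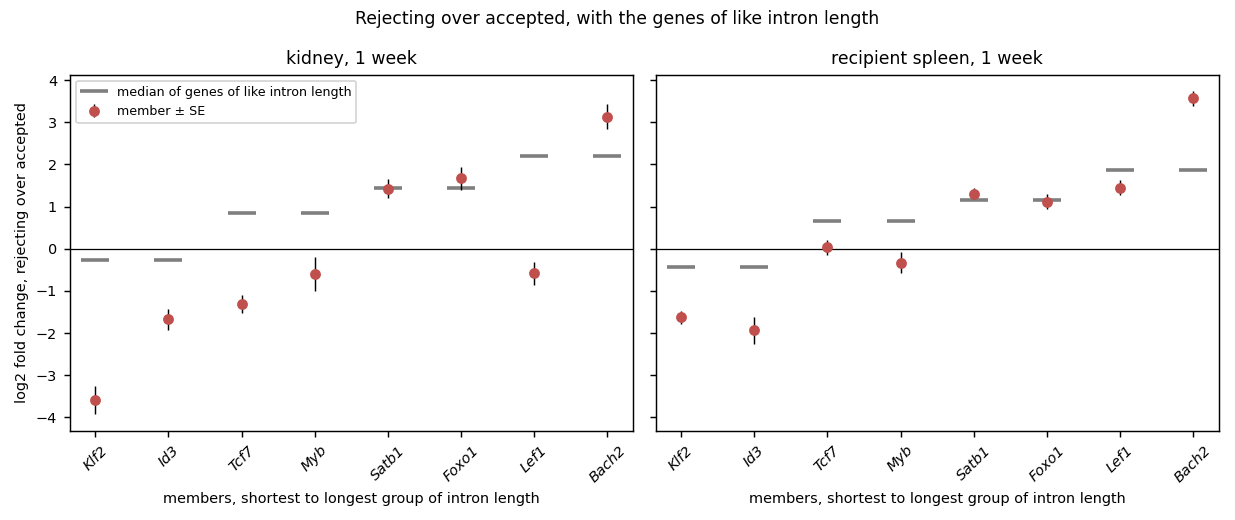
Log2 fold change ± SE of each factor in rejecting over accepted libraries at 1 week (points), for kidney and recipient spleen, with the median of genes of like intron length (grey bars), ordered from the shortest to the longest introns. Bach2 lies above its grey bar in both tissues and Klf2 and Id3 lie below theirs. The bar of Bach2 (337 kb of intron) is that of the whole longest group, which also holds Lef1 (105 kb).

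Kidney and spleen were also compared between the rejecting groups, unpaired, whose matrices list the same number of genes (32285). There 5 members were lower in kidney than in spleen and none higher, beside 5.79% of 8187 genes called lower and 11.4% higher (median 0.25; 66.4% of called genes higher, or 48.2% with TMM). Lef1 was 28.4-fold lower (-4.83 ± 0.36, adjusted p = 1.66e-06), Klf2 21.2-fold (-4.41 ± 0.38), Tcf7 9.47-fold (-3.24 ± 0.32, adjusted p = 9.50e-06), Bach2 6.29-fold (-2.65 ± 0.31) and Satb1 6.07-fold (-2.60 ± 0.29). Without rejecting kidney library 2 Klf2 was 34.9-fold lower (-5.13). Id3 (-1.07 ± 0.61), Myb (-0.20 ± 0.48) and Foxo1 (0.15 ± 0.33) were not called. The spleen libraries were shallow here (153266 to 794456 UMIs), with Id3 at 6.29, 19.6 and 24.2 CPM.

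The difference between kidney and spleen was itself compared between rejection and acceptance at 1 week, in a model over the 4 groups, in which 65 of 11915 genes were called (0.243% lower and 0.302% higher; 55.4% of called genes higher, or 38.5% with TMM; median 0.13) and 1504 had an unadjusted p under 0.05. Of the members 3 were called and 5 were not. The step from spleen down to kidney was steeper in rejection for Lef1 (log2 -2.03 ± 0.34, adjusted p = 0.0134), Klf2 (-1.97 ± 0.35, adjusted p = 0.0168) and Tcf7 (-1.35 ± 0.29, adjusted p = 0.0470). The difference was 0.57 ± 0.34 for Foxo1, 0.25 ± 0.49 for Id3, 0.11 ± 0.26 for Satb1, -0.28 ± 0.52 for Myb and -0.43 ± 0.35 for Bach2 (adjusted p 0.530 to 0.917). The call of Tcf7 held in 2 of 11 fits that left out 1 library (rejecting spleen library 1 or rejecting kidney library 3; adjusted p up to 0.139 in the others). Klf2 was lost without accepting spleen library 2, rejecting spleen library 1 or 3 or accepted kidney library 2 (adjusted p 0.0520 to 0.0630) and stood at -2.68 without rejecting kidney library 2, and Lef1 without rejecting spleen library 1 (adjusted p = 0.0522). Tcf7 was not called among non-dividing cells (-0.62, adjusted p = 0.547). Of the naive genes S1pr1, the exit receptor that KLF2 controls, was called with the largest difference (-3.25 ± 0.30), together with Nsg2 (-2.12 ± 0.36) and Dapl1 (-2.07 ± 0.40), and of the effector factors and paralogs none was called. Among the NK cell markers Klre1 was called higher (4.84 ± 0.69) and the other 2 were not called. Rejecting kidneys by themselves, where 47.7% of all genes were called higher and 10.4% lower, had 5 of 10 naive genes lower than accepted kidneys and none higher. Of the effector factors 6 of 8 were higher, led by Tox (2.69 ± 0.17) and Zeb2 (1.86 ± 0.25). These values are not adjusted for intron length, and the median of the 8 effector factors (0.66) lay at that of all genes (0.68).

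The share of cells with at least 1 UMI of a member was read after each cell had been thinned to 1000 UMIs (103 shallower cells left out). A Tcf7 UMI was found in 33.9% ± 0.496 (SD, n = 5) of cells in naive spleens, 28.4% ± 0.139 (n = 3) and 35.4% ± 1.23 (n = 5) in accepting spleens at 1 and 3 weeks, and 29.4% ± 5.94 (n = 3) in rejecting spleens. In accepted kidneys the share was 8.55% ± 1.21 (n = 3) at 1 week and 0.986% ± 0.269 (n = 5) at 3 weeks, and in rejecting kidneys 3.33% ± 1.57 (n = 2). B cells of naive spleens, which should lack Tcf7, gave 0.237% (63 of 26628 cells, median depth 2732 UMIs) and myeloid cells of rejecting kidneys 0.106% (6 of 5671, median 2472). Myeloid cells of naive spleens gave 0.341% (3 of 880, 95% exact interval 0.0704 to 0.993, median 5582.5). Each kidney library lay above these shares. The mean of accepted kidneys at 3 weeks, 0.986%, nevertheless lay within that interval, with libraries from 0.659% to 1.40%. Unthinned, the shares in accepted kidneys were 18.5% ± 1.18 and 2.35% ± 0.647.

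A Lef1 UMI was found in 4.28% ± 1.21 of cells of accepted kidneys at 1 week (n = 3) and 0.724% ± 0.320 at 3 weeks (n = 5), the latter below the 0.789% of naive spleen B cells but above the 0.123% (7 of 5671, 95% exact interval 0.0496 to 0.254) of rejecting-kidney and the 0.114% (1 of 880) of naive-spleen myeloid cells. Myb stood at 2.37% ± 0.884 and 0.0958% ± 0.0674, against 0.849% in those B cells and 0.0705% in the myeloid cells of rejecting kidneys, so that its 3-week share is at background. Klf2 was found in 14.5% ± 1.21 and 5.55% ± 0.672 of cells in accepted kidneys and in 1.60% ± 0.0184 (n = 2) in rejecting kidneys, below the 7.37% of myeloid cells from the same kidneys, which express it. Id3 was found in 2.46% ± 0.207 (n = 3) and 0.382% ± 0.0906 (n = 5) of cells in accepted kidneys at 1 and 3 weeks and in 0.414% ± 0.0141 (n = 2) in rejecting kidneys, and Bach2 in 0.604% ± 0.0731 (n = 5) in accepted kidneys at 3 weeks. Myeloid cells of rejecting kidneys gave 0.758% for Id3 (43 of 5671) and 3.86% for Bach2, and those of naive spleens 1.59% and 2.16%. The 3-week kidney shares of both genes thus lay below those of myeloid cells. Satb1, at 3.76% ± 0.454 (n = 3) and 2.50% ± 0.476 (n = 5) in accepted kidneys at 1 and 3 weeks, lay below the 4.55% (40 of 880, 95% exact interval 3.27 to 6.14) of naive-spleen myeloid cells but above the 0.670% of those from rejecting kidneys, and Klf2 at 3 weeks lay below both (42.4% and 7.37%). Whether myeloid cells express Id3, Bach2 or Satb1 was not tested. Foxo1 had shares of the same order in spleens and kidneys: 13.8% ± 0.568 in naive spleens (n = 5), 6.75% ± 1.30 and 9.04% ± 1.99 in accepted and 17.1% ± 5.58 in rejecting kidneys. Bach2 reached 40.8% ± 6.45 (n = 3) in rejecting spleens against 4.89% ± 0.241 (n = 3) in accepting ones. Shares of rejecting libraries, here and for Tcf7 above, are not adjusted for intron length. B cells carry Klf2, Satb1, Bach2, Foxo1 and Id3 (13.0% to 49.2% of naive spleen B cells), so they give no background for these genes.

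**Figure D4:**
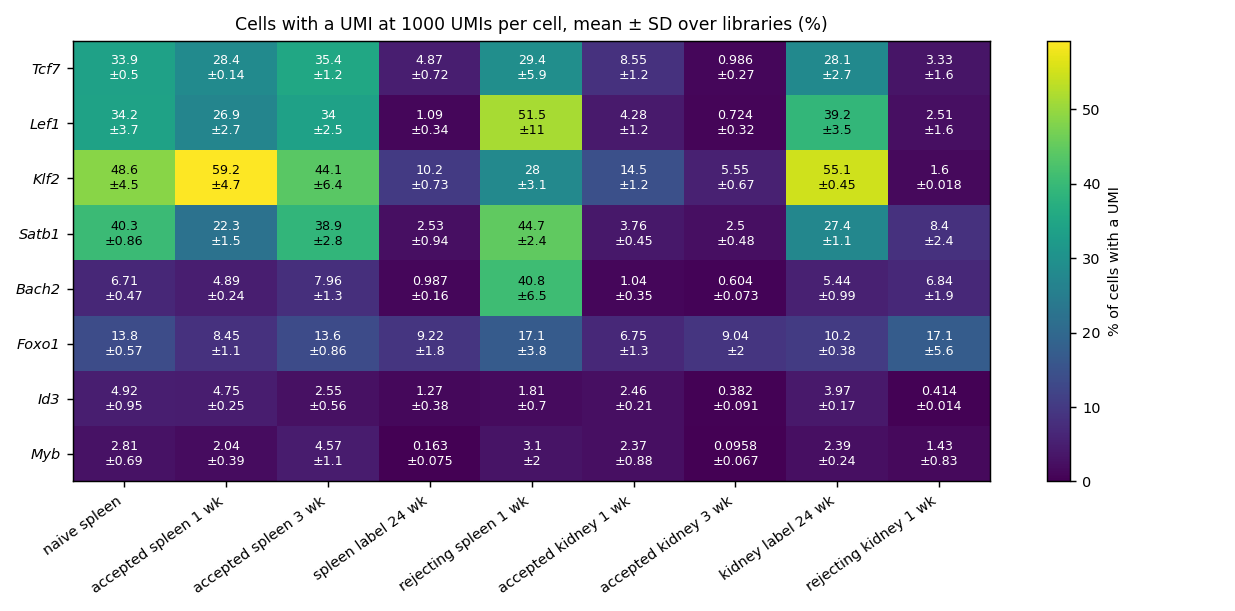
Share of cells (%, mean ± SD over libraries) with at least 1 UMI of each factor at 1000 UMIs per cell, by group; lighter cells mark higher shares. The Tcf7 row falls from 35.4% in the 3-week spleen to 0.986% in the 3-week kidney.

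None of the 8 members was found in 81.8% ± 1.51 (SD, n = 5) of cells in accepted kidneys at 3 weeks, in 66.0% ± 2.93 (n = 3) at 1 week and in 67.0% ± 4.66 (n = 2) in rejecting kidneys. In naive spleens that share was 11.1% ± 1.71 (n = 5) and in rejecting spleens 7.27% ± 2.30 (n = 3). The shares of rejecting libraries are not adjusted for intron length. The 24-week kidney label stood at 12.5% ± 0.470 and the 24-week spleen label at 73.9% ± 2.29 (n = 3 each).

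**Figure D5:**
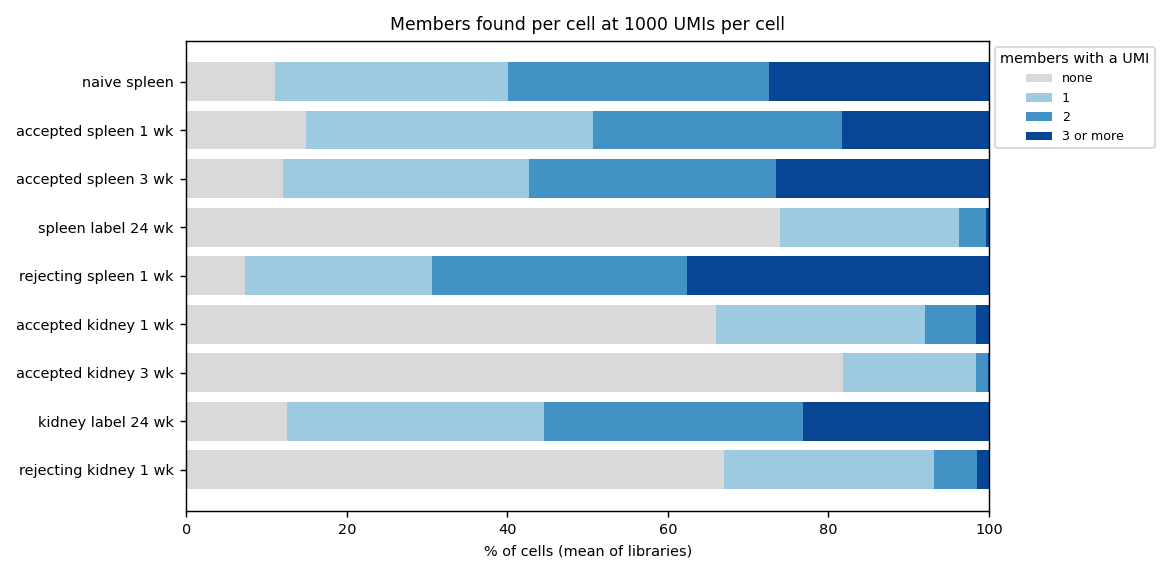
Share of cells (x axis, %, mean over libraries) in which none, 1, 2 or 3 or more of the 8 factors had a UMI at 1000 UMIs per cell, by group. Cells with none make 81.8% of the 3-week kidney bar and 11.1% of the naive spleen bar.

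Whether members lay in the same cells was described over the thinned cells of each group, with no test. At 1 week Lef1 was found in 7.98% of 1216 cells with a Tcf7 UMI (95% exact interval 6.52 to 9.64) and in 4.19% of 12747 cells without one (3.85 to 4.55). Id3 was found in 8.06% and 1.88% of these cells, Klf2 in 24.8% and 13.2%, and Foxo1 in 6.17% and 6.59%. At 3 weeks, with 207 Tcf7 cells, Lef1 was found in 3.38% (1.37 to 6.84) against 0.677%, and Id3 in 3.38% against 0.348%. In naive spleens Lef1 was found in 34.4% of cells with and 33.4% of cells without a Tcf7 UMI. Cells with a UMI of Pdcd1, which encodes PD-1, held Tcf7 in 5.39% of cases (175 of 3248) in accepted kidneys at 1 week, against 9.72% of cells without; at 3 weeks the shares were 0.855% (69 of 8071) and 1.03%. All intervals cover counting error only, and free RNA was not removed.

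Across the 32 libraries the members followed Tcf7 to different degrees, given here as Pearson correlations of log2(CPM + 1); the libraries share matrices and depth by group. Tcf7 correlated with Lef1 at 0.96, Satb1 at 0.89, Id3 and Myb at 0.88, Klf2 at 0.86, Bach2 at 0.74 and Foxo1 at 0.20, and Lef1 with Satb1 at 0.95. Foxo1 did not go with Id3 (-0.10) or Klf2 (-0.07). The mean level of 7471 genes, members included, reached 10 CPM. Among those that are no member, the most like Tcf7 were Dapl1 (0.98) and Nsg2 (0.97). Nsg2 (0.98) was also among the most like Lef1. Rps4x and Klk8 (0.96 each) were most like Klf2, Cd2ap (0.99) and Dennd2d (0.98) most like Satb1, and Maml3 and Scml4 (0.98 each) most like Bach2. For Myb these were Slamf6 (0.94) and Tagln2 (0.93), for Id3 Rbm38 (0.90) and Rgcc (0.89), and for Foxo1 Retreg1 and Rreb1 (0.88 each). Without the 24-week libraries, 26 in number, Dapl1 and Tcf7 correlated at 0.99.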

How the data were processed

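The deposited files held raw UMI counts, which the authors made with Cell Ranger against mm10 (version and intron setting not given in the sources used here) and cut down to cells of their CD8+ clusters in Seurat. Counts were summed per barcode tag, taken as 1 library and as the replicate, over cells with a Cd8a or Cd8b1 UMI; the study's methods treat each mouse as its own sample, with as many biological replicates of accepted recipients at each time as there are tags, but the tags themselves are not tied to mice in the sources used here, so p-values measure the spread between tags. Sums were tested with edgeR 4.0.16 (quasi-likelihood, plain library totals, filterByExpr, Benjamini-Hochberg adjustment over all genes tested, threshold 0.05, R 4.3.3), each of 13 comparisons on its own over genes listed in all its matrices; fitting was tested on simulated data. Alternatives were TMM factors, DESeq2 1.42.0, no filter on low counts, all matrix cells, cells without Cd4, B, myeloid or NK markers, non-dividing cells, cells thinned to 1000 UMIs (fixed seed), adjustment for intron length in 10 groups, a joint fit and leaving out each library. Doublets were not called; the stricter cell choice bears on them. Shares and correlations are descriptions without a test, and intervals are exact (Clopper-Pearson, 95%).

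The text names all 8 members in each comparison, up to 4 called genes of each list by largest absolute log2 fold change, and the 2 genes most like each member; 1 gene is not reported here. The members and the gene lists (naive and recirculation genes, effector factors, paralogs, markers of other cells) were chosen with earlier results of these data known. Counts of a list are not adjusted over the list alone.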

Additional observations from a re-analysis of the deposited data

Results flagged for a closer look

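The following sets of values stand out because a step between groups differed between tissues or outcomes, by a test of that difference. From 1 to 3 weeks the change in accepted kidney was lower than that in the recipient's spleen, on the log2 scale, by -5.86 for Myb, -3.30 for Tcf7, -2.96 for Lef1, -1.71 for Id3, -1.48 for Bach2, -1.42 for Satb1 and -0.80 for Klf2; each was called (edgeR, adjusted p 1.04e-12 to 0.00118) and stayed called in all 16 fits that left out 1 library. At 1 week the step from spleen to kidney was lower in rejection than in acceptance by -2.03 for Lef1, -1.97 for Klf2 and -1.35 for Tcf7, called in 10, 7 and 2 of 11 such fits. The second set compares DBA/2J with B6 recipients as well as outcomes. In the 24 checks of a member within a group of 5 libraries, no library stood apart from the others by Dixon's criterion.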

How the results depend on the processing

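Of 933 results under alternatives other than leaving out a library, 870 kept their direction and side of the threshold and 36 changed sign; with the sign kept, 17 lost and 10 gained a call. Of the 36, 4 also gained a call (Tcf7 in rejecting over accepting spleens with DESeq2, TMM or intron adjustment, and Foxo1 in 24 over 3 weeks under the kidney label, intron adjusted) and 2 lost one (Lef1 and Foxo1 in rejecting over accepting spleens, intron adjusted), so that 19 calls were lost and 14 gained in all. For the fits without 1 library 799 of 840 kept both, 17 changed sign, 19 lost and 5 gained a call. No paired analysis was possible because the labels give no replicate numbers and tag numbers are not stated to mark the same mouse. Adjusted for intron length, 3 members were called between accepting spleens at 1 week and naive spleens in place of 7. Without 1 library, 1 to 3 members were called for the kidney over spleen step between rejection and acceptance.

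Log2 fold changes that changed sign were the following; the cause was not tested. Foxo1, 24 over 3 weeks under the kidney label: 0.31 (DESeq2), 0.30 (TMM), 0.074 (thinned), 0.49 (intron adjusted). Foxo1, kidney over spleen label at 24 weeks: 0.066 with DESeq2, 0.074 with TMM, 0.021 thinned, 0.15 intron adjusted. Foxo1, change from 1 to 3 weeks between kidney and spleen: -0.22 (DESeq2), -0.16 (TMM), -0.050 (all cells), -0.18 (thinned), -0.28 (intron adjusted), -0.074 (non-dividing), -0.077 (no other markers), and -0.11 to 0.12 without 1 library. Foxo1, rejecting kidney over spleen: -0.035 (DESeq2), -0.061 (TMM), -0.059 (intron adjusted), and -0.46 to 0.57 without 1 library. In rejecting over accepting spleens, Tcf7 was at -0.47 (DESeq2), -0.43 (TMM), -0.0064 (thinned), -0.59 (intron adjusted), -0.056 (no other markers) and -0.19 to 0.25 without 1 library; Lef1 at -0.32 and Foxo1 at -0.0012 (intron adjusted); Myb at 0.0082 (thinned) and 0.068 (no other markers). Id3, accepting over naive spleens: 0.076 with DESeq2, 0.079 with TMM, and -0.20 to 0.024 without 1 library. Myb, accepted kidney over spleen at 1 week: -0.22 (non-dividing) and -0.093 to 0.34 without 1 library. Myb, rejecting kidney over spleen: -1.11 to 0.35 without 1 library. For the kidney over spleen step between rejection and acceptance, Bach2 was at 0.0061 (all cells); Satb1 at -0.13 (thinned, and intron adjusted), -0.071 (no other markers) and -0.25 to 0.40 without 1 library; Id3 at -1.42 (thinned), -0.14 (no other markers) and -0.36 to 1.06; Foxo1 at -0.045 to 0.98; and Myb at -1.22 to 0.23.

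Of these, Lef1 and Foxo1 in rejecting over accepting spleens were called before the adjustment; the others were not called in the reported fit. Of 72 shares of cells with a UMI, 71 moved by more than 1 SD when cells were not thinned and 67 when thinned to 500 UMIs, since shares rise with depth. Rejecting spleens, with 726 cells, limit what that group can show. Their libraries 1, 2 and 3 held 353, 56 and 317 cells, and each library counts alike in the group means.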
